A study of Drosophila melanogaster with 8 samples.

Results

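Kc cells, a female *Drosophila melanogaster* line, were treated with RNA interference against Sxl and Msl2 together, and their transcripts were compared with those of Kc cells given a control double-stranded RNA against GFP. The comparison rests on 5 of the 8 arrays of the series, 2 labelled as Sxl and Msl2 knockdown (double knockdown) and 3 labelled as GFP control. Of the remaining 3 arrays, all of Sxl RNAi alone, replicates 2 and 3 entered the fit, where they served to estimate the spread and to test where the 2 knockdowns differ. The labels name GFP replicate 1 as the background control of double knockdown replicate 1 (pair 1, control set 1), and GFP replicate 3 as that of double knockdown replicate 2 (pair 2, control set 3). GFP replicate 2 and Sxl RNAi replicate 1 form control set 2, which holds no double knockdown array. The arrays were chosen by these labels and not by any measured value.

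SXL is the RNA-binding protein that sets female fate in *Drosophila*. It directs the female splicing of tra, blocks production of MSL2, and thereby keeps the male-specific lethal (MSL) complex, which raises transcription of the male X chromosome, from forming in female cells. Removing SXL alone therefore changes 2 things, the direct targets of SXL and the MSL complex, whereas removing SXL and MSL2 together asks what changes in female cells that lose SXL without gaining MSL2.

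The values are log2 summaries of Affymetrix probe sets, made by the authors with RMA, so a change is read against the rest of the array. A log2 change of 1 is a doubling. Changes are the mean of the 2 pair differences with the standard error (SE) from limma, a linear model fitted to 11982 genes, and a gene was called when its adjusted p (Benjamini-Hochberg over all genes) was under 0.05. Genes whose mean over the arrays passed 5.24, the middle of the ranking of genes, are termed expressed, and a value under that limit was not shown to be above background. The median of each array lay between 4.4 and 4.46. GFP replicate 2 stood apart for some abundant genes. The collagen IV genes Col4a1 and vkg, for example, read 5.70 and 5.78 there, against values from 9.70 to 9.94 in the other GFP and both double knockdown arrays. By the labels it controls no double knockdown array, so it stayed out of the fit, and its values are printed beside the others to show the spread of the controls. When its control set was included in a fit of all 8 arrays, 18 of the 88 named genes that were called lost their call. Those not given beside their values were PH4alphaEFB (limma adjusted p = 0.0875), elav (0.052), Fmr1 (0.0705), Pfk (0.0962), Ald1 (0.0898), Dark (0.0771), RpS10a (0.081), mRpS35 (0.0947), COX7AL (0.0514) and Nrd1 (0.0528). Separate cultures are not stated in the labels, and the p-values therefore rest on a spread between arrays that may be technical only. In a bulk sample, fewer cells that make a transcript and less of it per cell cannot be told apart.

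The msl-2 transcript read 4.32, 4.47 and 4.51 in GFP replicates 1, 2 and 3, and 4.16 and 4.13 in double knockdown replicates 1 and 2. Both double knockdown values were below all 3 controls, but all 5 lay under the expressed limit, and the difference of -0.27 ± 0.10 did not pass (limma adjusted p = 0.187). After Sxl RNAi msl-2 read 6.19, 5.33 and 5.61 in the order of the replicates, and the double knockdown was lower than Sxl RNAi by a tested -1.32 ± 0.10 (limma adjusted p = 0.00236). The Sxl probe set used for the gene read 7.20, 7.01 and 6.99 in GFP and 6.65 and 7.37 in the double knockdown, so the groups overlapped, with a difference of -0.08 ± 0.21 (limma adjusted p = 0.901). A second probe set, 1634337_s_at, of the same gene read 6.73, 6.87 and 6.91 in GFP and 6.24 and 6.41 in the double knockdown, lower in both pairs but not past the threshold (-0.50 ± 0.18, limma adjusted p = 0.21). The array labelled double knockdown replicate 2 was thus above its control on one Sxl probe set and below it on the other, and the signal of the targeted gene does not settle that label.

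Across all genes, 335 rose and 280 fell, which is 2.80% and 2.34% of those tested. Every one of these 615 genes moved the same way in both pairs, which the call all but requires, since it rests on the mean of the 2 pair differences. Among all expressed genes, called or not, 69.7% did so. The change was at least a doubling for 23 of those called that rose and at least a halving for 30 of those that fell. Of the 5991 expressed genes, 564 were called. Counts of list members below are to be read beside these shares. In 412 of the 615 called genes both double knockdown arrays lay outside the range of all 3 GFP arrays, against 24.3% of all genes tested. The calls were made against GFP replicates 1 and 3, which are among those arrays, so a higher share was in part built in. Of the called genes 75 had their lower side under the expressed limit, so that their change is a lower bound if that side is background. The typical change was small, with a median absolute change of 0.13 among expressed genes beside a median residual SD of 0.07. The 2 pairs use different arrays throughout, and across the expressed genes their differences had r = 0.714, a description over genes that are not independent replicates. The count rests on both double knockdown arrays. It fell to 121 without double knockdown replicate 1 and to 143 without replicate 2, and was 411 without GFP replicate 1. The 15 largest rises and the 15 largest falls, described next, were steadier, since 28 of the 30 stayed called without any single array.

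**Figure D1:**
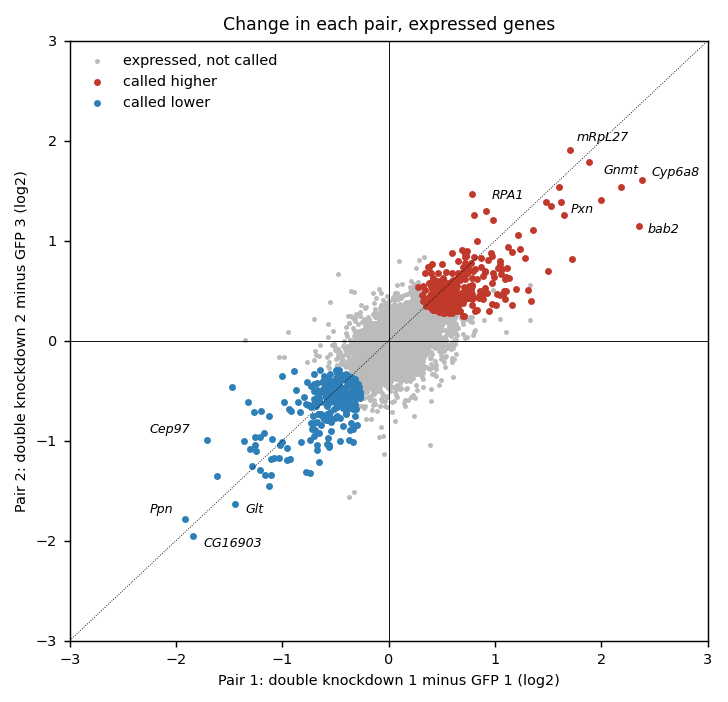
Change of each expressed gene in pair 1 (horizontal axis, double knockdown 1 minus GFP 1, log2) and in pair 2 (vertical axis, double knockdown 2 minus GFP 3, log2); each point is a gene, red where called higher, blue where called lower and grey otherwise, and the dotted line marks equal change. All 615 called genes, of which the 564 expressed ones are drawn, lie at the upper right or lower left, where both pairs moved the same way. A call on the mean of the 2 pair differences all but requires this.

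The largest rise was that of Cyp6a8, one of several cytochrome P450 genes, whose enzymes oxidize foreign compounds and lipids. Cyp6a8 read 5.78, 9.62 and 7.78 in GFP, in replicate order, and 8.16 and 9.38 in the double knockdown. It was thus far above its own control in each pair, yet below GFP replicate 2, and the rise was 2.00 ± 0.18 (3.99-fold, limma adjusted p = 9.81e-04). Cyp6w1 read 4.57, 5.69 and 5.71 in GFP and 6.17 and 7.25 in the double knockdown, with no overlap (1.57 ± 0.10, limma adjusted p = 3.83e-04). Cyp12d1-d rose by 1.46 ± 0.12 and Cyp6a2 by 1.23 ± 0.10, each with a GFP array above at least 1 of the double knockdown values. The family as a whole did not move one way. Of 79 measured P450 genes 6 rose and 5 fell, with a median of -0.01 beside 0.00 over all genes. The largest fall in the family, named after its values were seen, was that of Cyp4p1, which read 7.44, 10.32 and 8.12 in GFP and 6.48 and 7.05 in the double knockdown (-1.02 ± 0.14, limma adjusted p = 0.00546). Among 37 glutathione S-transferases, which join glutathione to such compounds, 2 rose and 6 fell, with a median of -0.10. GstE9 read 9.97, 10.42 and 10.35 in GFP and 8.87 and 9.37 in the double knockdown, all lower (-1.04 ± 0.09, limma adjusted p = 9.81e-04), GstD5 fell by 0.71 and GstD2 by 0.64, and GstO3 rose by 0.73. A dim second GstE9 probe set gave -0.05. GstD5 lost its call without double knockdown replicate 1 (-0.62, limma adjusted p = 0.0647), and GstD2 without either double knockdown array (-0.67 and -0.61).

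Gnmt, the enzyme that uses up S-adenosylmethionine by methylating glycine, read 8.45, 9.70 and 9.46 in GFP and 10.64 and 11 in the double knockdown. Both double knockdown arrays were above every control, and the rise was 1.86 ± 0.14 (3.64-fold, limma adjusted p = 7.06e-04). Of 16 genes of methionine and glycine methylation 4 rose, and the list's median was 0.07. The others were Cth, which makes cysteine from cystathionine (0.83 ± 0.11), MsrA, which reduces oxidized methionine (0.82 ± 0.08), and Bhmt (0.40 ± 0.09). Cth and Bhmt lost their calls without either double knockdown array, and Bhmt also without GFP replicate 1 (0.35, limma adjusted p = 0.168).

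Genes of the Enhancer of split cluster, which encode repressors and related factors switched on by Notch signalling, were among those that rose most. E(spl)m3-HLH read 4.47, 3.64 and 4.95 in GFP and 6.35 and 6.74 in the double knockdown (1.84 ± 0.08, limma adjusted p = 4.54e-05). All 3 GFP values were under the expressed limit, so the change is a lower bound if they are background. E(spl)mbeta-HLH read 6.78, 5.45 and 6.20 in GFP and 7.57 and 7.67 in the double knockdown, again without overlap (1.13 ± 0.14, limma adjusted p = 0.00439). In the fit of all 8 arrays, with control set 2 included, neither passed, at 1.5 (limma adjusted p = 0.0562) and 0.88 (limma adjusted p = 0.146). Of 18 measured Notch pathway and Enhancer of split genes 4 rose, with a median of 0.06. The others were fng, which modifies the Notch receptor (0.49 ± 0.08), and E(spl)m2-BFM (0.45 ± 0.09), both with a mean under the expressed limit in both groups, so that neither level was shown to be above background, and both lost without either double knockdown array and in the fit of all 8 arrays (0.34 and 0.37).

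The next rises were of separate genes. mRpL27, a protein of the mitochondrial ribosome, read 7.01, 8.23 and 7.42 in GFP and 8.71 and 9.33 in the double knockdown (1.81 ± 0.10, limma adjusted p = 1.58e-04), while 1 other of 69 mitochondrial ribosomal protein genes, mRpS35, passed (0.36, lost without any single array), and the list's median was 0.10. At unadjusted p under 0.05, 13 of the 69, all of them expressed, were higher and 0 lower. Of all 11982 genes 2196 passed that mark in either direction, and 1861 did in a fit of the 5991 expressed genes. A trended robust limma fit called 12 of the 69 higher and 0 lower, beside 717 higher and 597 lower over all genes. RPA1, the large subunit of the protein that covers single-stranded DNA during replication and repair, read 10.90, 11.30 and 10.91 in GFP and 12.37 and 12.29 in the double knockdown (1.43 ± 0.08, limma adjusted p = 1.91e-04). CG30046 read 6.14, 6.22 and 6.27 in GFP and 8.14 and 7.68 in the double knockdown (1.70 ± 0.13, limma adjusted p = 7.15e-04). These 3 genes and CG4611 (1.43 ± 0.10) had both double knockdown arrays above every control. The transcription factor gene bab2 (1.75 ± 0.22), the gene of the apical polarity protein baz (1.27 ± 0.18) and the secreted growth factor gene Idgf1 (1.14 ± 0.10) rose in both pairs but overlapped GFP replicate 2, which read 7.94, 7.22 and 7.60 for them in turn.

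**Figure D2:**
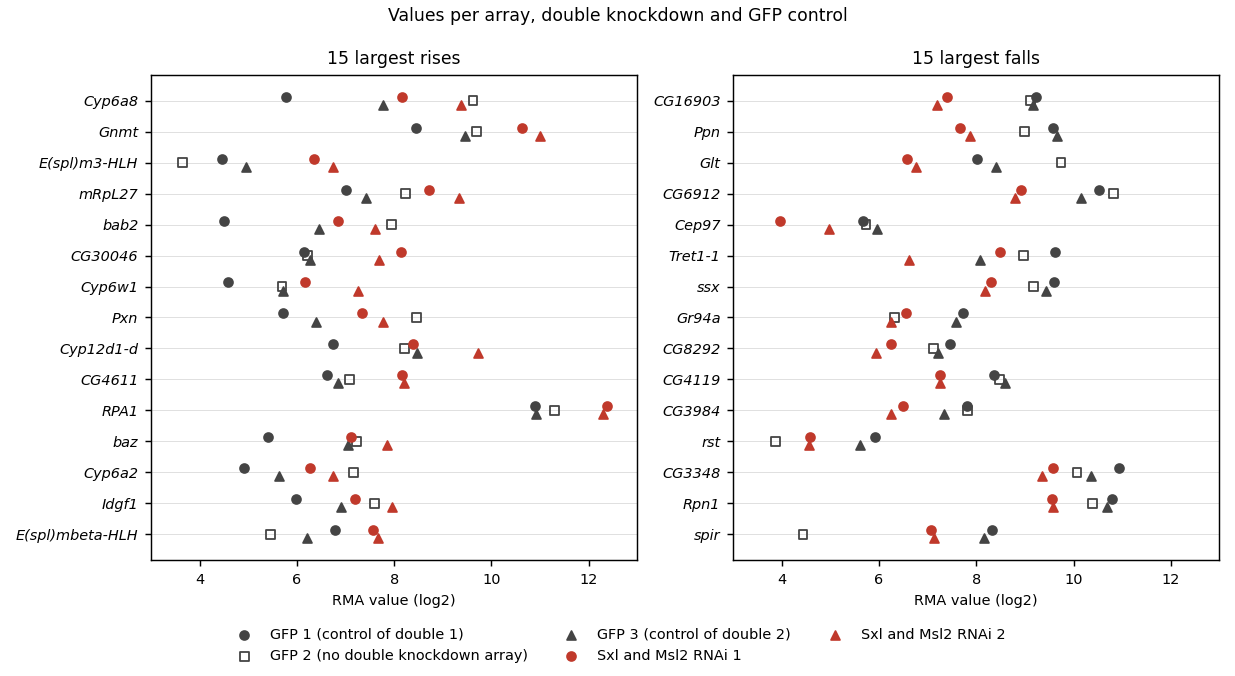
RMA values (log2, horizontal axis) of the 15 genes that rose most (left) and the 15 that fell most (right) on each of the 3 GFP arrays (dark grey) and the 2 double knockdown arrays (red); circles and triangles mark the arrays of pair 1 and pair 2, and the open square is GFP replicate 2, which controls no double knockdown array. Red circles lie right of the grey circles among the rises and left of them among the falls, and the triangles likewise, while for 11 of the 30 genes a dark symbol of another control set falls among or beyond the red ones.

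The gene that fell most was CG16903, on the X. It read 9.24, 9.12 and 9.16 in GFP and 7.40 and 7.20 in the double knockdown, a fall to well under the narrow range of the controls (-1.90 ± 0.08, 3.73-fold, limma adjusted p = 4.54e-05). In Sxl RNAi it differed from GFP by 0.10. It was the only gene called when the 3 GFP and 2 double knockdown arrays were compared without regard to the pairs.

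Matrix genes made up the next falls. Ppn, which encodes the basement membrane protein papilin, read 9.57, 8.99 and 9.65 in GFP and 7.66 and 7.87 in the double knockdown, below every control (-1.85 ± 0.23, limma adjusted p = 0.00439), but it lost the call without double knockdown replicate 2 (-1.62, limma adjusted p = 0.0729). Glt, the basement membrane glycoprotein glutactin, read 8.02, 9.74 and 8.40 in GFP and 6.58 and 6.76 in the double knockdown (-1.54 ± 0.12, limma adjusted p = 7.06e-04). Pxn, a peroxidase of the same matrix, read 5.71, 8.45 and 6.39 in GFP and 7.33 and 7.78 in the double knockdown, a rise in both pairs that overlapped GFP replicate 2 and that was lost without double knockdown replicate 1 (1.5 ± 0.22, limma adjusted p = 0.0085, and 1.16, limma adjusted p = 0.0958, without that array). A second Pxn probe set was at 0.0031. Of 20 basement membrane and matrix genes 1 rose and 3 fell, with a median of -0.09. The third was PH4alphaEFB, which hydroxylates collagen (-0.44 ± 0.09), lost without either double knockdown array or GFP replicate 1. Among 14 integrin and adhesion genes 2 fell, Itgbn, an integrin beta subunit (-1.11 ± 0.09, with the double knockdown under the expressed limit), and rhea, which links integrins to actin (-0.66 ± 0.10, and -0.52, limma adjusted p = 0.0991, without double knockdown replicate 2). The adhesion gene rst fell in both pairs by 1.18 ± 0.10, from 5.92 and 5.6 to 4.59 and 4.56, although GFP replicate 2 read 3.88.

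Other large falls spanned varied functions. Tret1-1, a trehalose transporter, fell by 1.29 ± 0.15, and nebu, the other of 12 sugar transport genes to pass, by 0.53 ± 0.08, though it lost its call without either double knockdown array. spir, an actin nucleator, read 8.32 and 8.17 in GFP replicates 1 and 3 and 7.06 and 7.13 in the double knockdown, with 4.43 in GFP replicate 2 (-1.15 ± 0.10). The taste receptor gene Gr94a (-1.25 ± 0.11) and the uncharacterised genes CG6912 (-1.48 ± 0.14), CG8292 (-1.25 ± 0.12), CG4119 (-1.23 ± 0.12), CG3984 (-1.20 ± 0.11) and CG3348 (-1.18 ± 0.12) completed the largest falls, beside Cep97, ssx and Rpn1, which are described below. CG4119 was just short of the threshold in the fit of all 8 arrays (-1.02, limma adjusted p = 0.0551).

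Of 18 genes of the sex determination list, whose median was -0.07, 2 passed, and both fell. The first, ssx, encodes a close relative of SXL and read 9.59, 9.17 and 9.44 in GFP and 8.31 and 8.19 in the double knockdown (-1.27 ± 0.09, limma adjusted p = 4.35e-04). The other, tra, is the gene whose transcript SXL splices in females, and read 9.05, 9.31 and 9.11 in GFP and 8.05 and 8.10 in the double knockdown (-1.01 ± 0.08, limma adjusted p = 8.40e-04). For both genes every double knockdown value was below every control, and neither differed from Sxl RNAi past the threshold (0.26 ± 0.09 and 0.15 ± 0.08, limma adjusted p = 0.287 and 0.563). The partner gene tra2 differed from GFP by 0.03 and fru, whose transcript both products splice, by 0.23, neither past the threshold.

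In the MSL complex list 1 of 8 members passed. mof encodes the acetyltransferase of the complex, lies on the X, and read 8.37, 8.57 and 8.27 in GFP and 9.16 and 8.97 in the double knockdown, where MSL2 was also targeted (0.74 ± 0.08, 1.68-fold, limma adjusted p = 0.00275). Both double knockdown values were above all controls. The rise was 1.15 after Sxl RNAi, and the 2 knockdowns did not differ past the threshold (-0.40 ± 0.08, limma adjusted p = 0.0816). mle, the RNA helicase of the complex, was at -0.28 against GFP (limma adjusted p = 0.125) and was lower in the double knockdown than in Sxl RNAi by a tested 0.61 on the log2 scale (-0.61 ± 0.09, limma adjusted p = 0.0281). The scaffold gene msl-1 was at 0.08, the chromodomain gene msl-3 at 0.20, and the cofactors Clamp, JIL-1 and Unr at -0.07, -0.07 and -0.10, none past the threshold. A second msl-3 probe set, 1630477_at, read 5.35, 6.06 and 6.20 in GFP and 6.61 and 6.59 in the double knockdown, and passed in the fit of all probe sets (0.83 ± 0.17, limma adjusted p = 0.037). Both probe sets of this gene were thus higher in both pairs, and they differ in size and in whether they passed. With the mean of a gene's probe sets, 2 members of the list were called higher.

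Genes of DNA replication and the cell cycle formed the list with the most calls. Of 35 measured members, all of them expressed, 16 rose and 1 fell, and the list's median was 0.36, against 0.00 over all genes. Over all genes 2.80% rose and 2.34% fell, and 564 of the 5991 expressed genes were called. In all 17 the double knockdown arrays lay outside the range of the 3 controls, of which GFP replicates 1 and 3 had also served to call them. The same held for 412 of all 615 called genes and for 24.3% of all genes. Of the 35 members, 29 were higher in both pairs. Among all expressed genes 69.7% moved the same way in both pairs, in either direction. Prim1 and Prim2, the subunits of the primase that starts new DNA strands, rose by 0.86 ± 0.11 and 0.77 ± 0.12. Prim1 read 7.87, 8.08 and 8.48 in GFP and 8.92 and 9.14 in the double knockdown, and Prim2 read 8.49, 8.83 and 8.81 and then 9.47 and 9.39. Orc1, a subunit of the complex that marks replication origins, rose by 0.70 ± 0.13. Rbf, the X-linked retinoblastoma homologue that represses E2F targets, was the member that fell, from 6.71, 6.36 and 6.56 in GFP to 5.86 and 5.94 in the double knockdown (-0.73 ± 0.11, limma adjusted p = 0.00854).

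The other called members, named after their values were seen, covered the steps from origin licensing to the fork. Among genes of the MCM helicase, Mcm6 rose by 0.67 ± 0.09, Mcm3 by 0.65 ± 0.09, Mcm2 by 0.63 ± 0.10, Mcm5 by 0.59 ± 0.10 and dpa, the Mcm4 gene, by 0.51 ± 0.09. The licensing factor dup rose by 0.62 ± 0.09, the helicase activators Cdc45 and Sld5 by 0.60 ± 0.11 and 0.58 ± 0.09, the polymerase alpha gene PolA1 by 0.42 ± 0.09, and the sliding clamp PCNA and the origin subunit Orc4 by 0.41 ± 0.09 and 0.41 ± 0.10. The kinase gene Cdk2 and the E2F partner gene Dp rose by 0.53 ± 0.09 and 0.50 ± 0.09. The median was 0.30 over the 7 members on the X and 0.39 over the 28 on autosomes, with 3 and 13 of them up. None of the 17 differed between the double knockdown and Sxl RNAi past the threshold. The single calls were thin: without double knockdown replicate 1 no member was called by limma (24 at unadjusted p under 0.05, 23 up and 1 down) and the median was 0.36, without double knockdown replicate 2 it was 2 up (24 and 1 unadjusted) and the median 0.43, and without GFP replicate 1 it was 8 up and 1 down with a median of 0.28. Orc1 fell to 0.44 without GFP replicate 1 (limma adjusted p = 0.0829).

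Caf1-180, the X-linked gene of the chromatin assembly factor that acts behind the replication fork, is in no list and was also picked after its values were seen. It read 9.24, 9.58 and 9.31 in GFP and 10.47 and 10.23 in the double knockdown (1.08 ± 0.11, limma adjusted p = 0.0014).

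**Figure D3:**
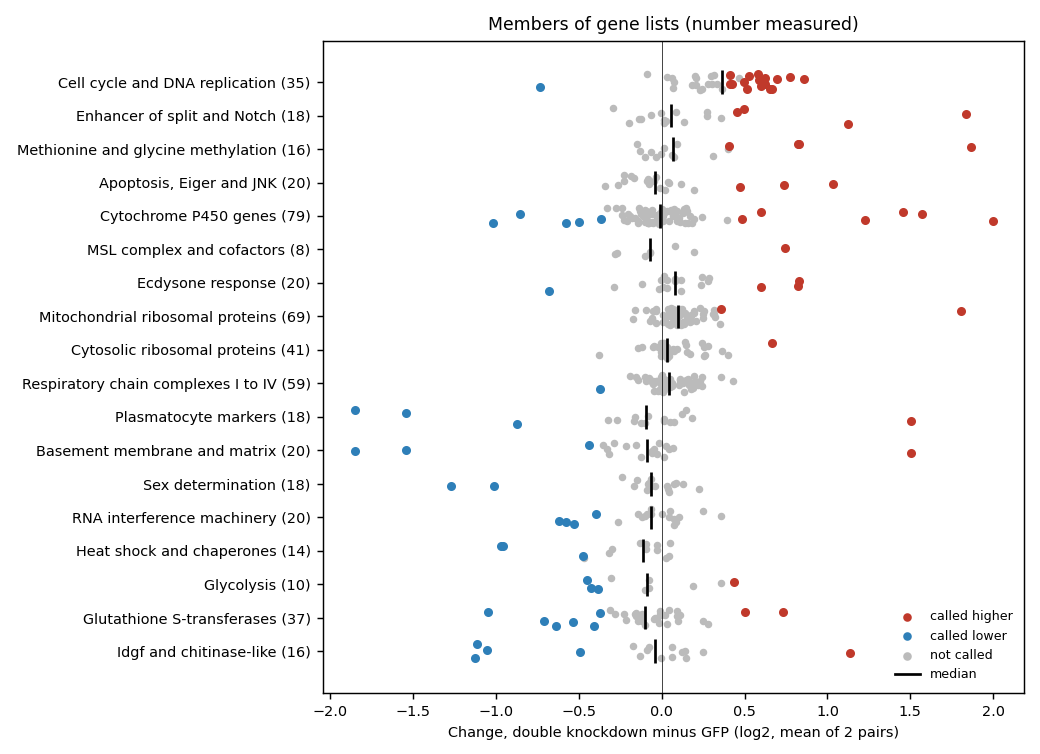
Log2 change of each measured member (horizontal axis, double knockdown minus GFP, mean of 2 pairs) in 18 of the 33 gene lists (rows, number measured in parentheses); points are genes, red where called higher, blue where called lower and grey otherwise, and the black bar is the list's median. The bar of the replication list stands at 0.36, while the bars of the other lists drawn lie between -0.11 and 0.10.

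Smaller groups moved in part. Beside their counts, 2.80% of all genes rose and 2.34% fell, and 564 of the 5991 expressed genes were called. Of 20 genes of RNA interference, the machinery that the double-stranded RNA itself engages in every group, 4 fell, with a median of -0.06. Dcr-2, the enzyme that cuts long double-stranded RNA, read 9.81, 9.84 and 9.59 in GFP and 9.21 and 9.13 in the double knockdown (-0.53 ± 0.09, limma adjusted p = 0.0149), its partner gene loqs fell by 0.40 ± 0.08, Fmr1 by 0.62 ± 0.10 and AGO3 by 0.58 ± 0.09. Fmr1 lost its call without double knockdown replicate 2 (-0.46), AGO3 without either double knockdown array, Dcr-2 also without GFP replicate 1 (-0.43), and loqs without any 1 of these or GFP replicate 3. Of 14 heat shock and chaperone genes 3 fell, with a median of -0.11. The small heat shock genes Hsp26 and Hsp27 fell by 0.97 ± 0.15 and 0.95 ± 0.12, and their calls were lost without double knockdown replicate 1 (-0.70 and -0.78), and the endoplasmic reticulum chaperone gene Gp93 fell by 0.47 ± 0.08, lost without GFP replicate 1 or either double knockdown array.

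Among 20 apoptosis, Eiger and JNK genes 3 rose, with a median of -0.04. egr, the fly tumour necrosis factor, read 5.49, 6.13 and 6.72 in GFP and 6.61 and 7.66 in the double knockdown, above its control in each pair but overlapping across them (1.03 ± 0.11, limma adjusted p = 0.00272). Its receptor gene wgn, on the X, read 9.69, 9.11 and 9.93 and then 10.43 and 10.67, without overlap (0.74 ± 0.08, limma adjusted p = 0.00275). A second egr probe set was at 0.51 (limma adjusted p = 0.106). The egr call was lost in the fit of all 8 arrays (0.86, limma adjusted p = 0.0576). The caspase activator gene Dark was just inside the threshold (0.47 ± 0.11, limma adjusted p = 0.0489). It was 0.31 without GFP replicate 1, 0.30 without double knockdown replicate 1 and 0.64 without replicate 2, past the threshold in none of them, and a second Dark probe set gave -0.38.

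Of 16 secreted chitinase-like proteins and chitinases 1 rose and 4 fell, with a median of -0.04. Idgf6 is described below, Cht10 fell by 1.13 ± 0.10 and Cht2 by 1.05 ± 0.11, each with both double knockdown arrays below every control. Glycolysis had 1 up and 3 down of 10, with a median of -0.09. Pfk was at 0.44 ± 0.09 and Tpi, Ald1 and Pgi were at -0.45, -0.43 and -0.38. Among 20 ecdysone response genes 3 rose and 1 fell, with a median of 0.08. These were Cth and MsrA, given above, br, an early response gene (0.60 ± 0.09, with 4 other probe sets from -0.02 to 0.05), and ImpL2, which binds insulin-like peptides (-0.68 ± 0.09). Of 34 tetraspanins 2 rose and 2 fell, with a median of -0.05. TM4SF was at 1.11 ± 0.12, Tsp42Ej at 0.52, Tsp42Ed at -0.69 and Tsp42Ea at -0.50. RpS10a alone of 41 cytosolic ribosomal protein genes rose (0.67 ± 0.12), and COX7AL alone of 59 respiratory chain genes fell (-0.37 ± 0.08), shares near those over all genes. At unadjusted p under 0.05, 7 cytosolic ribosomal and 8 respiratory genes were higher and 1 of each lower, where 2196 of all 11982 genes passed in either direction. A trended robust limma fit called 8 higher in each list and 1 respiratory gene lower, where it called 1314 of all genes. vir-1 alone of 28 immune genes fell (-0.42 ± 0.10), and was at -0.28 without double knockdown replicate 2 and -0.33 without GFP replicate 3. Of 19 centriole genes Cp110 rose (0.57 ± 0.10) and Cep97 fell, and of 18 lipid synthesis genes Desat1 fell (-0.70 ± 0.08). None of 9 JAK/STAT genes was called by limma (3 lower at unadjusted p under 0.05), with Stat92E at 0.06 and Ptp61F at -0.21. Of the genes called in this paragraph Idgf6, Cht10, Cht2, MsrA, TM4SF, Cep97 and Desat1 kept their calls without any single array, ImpL2 lost its call without double knockdown replicate 2 (-0.59), and Cth, Pfk, Tpi, Ald1, Pgi, br, Tsp42Ej, Tsp42Ed, Tsp42Ea, RpS10a, COX7AL, vir-1 and Cp110 lost theirs without either double knockdown array. Ald1, Tsp42Ej, RpS10a and Cp110 lost theirs also without GFP replicate 1, and Pfk, Tpi, Tsp42Ea and vir-1 also without GFP replicate 3. Pgi lost its call also without either of these GFP arrays, and COX7AL without any single array of the fit.

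Markers of cell types were read alongside. Kc cells carry hemocyte genes, and Hml and srp, which mark plasmatocytes and blood cell precursors, were high in every array (Hml from 11.03 to 11.85 in GFP, and 11.13 and 11.20 in the double knockdown), whereas NimB1, NimC2 and Sr-CI were under the expressed limit. Of 18 plasmatocyte markers 12 were over the limit on some array, 1 rose (Pxn) and 3 fell (Ppn, Glt and He, the last by 0.87 ± 0.12). Their summed level was 13.05 to 13.33 in GFP and 12.94 and 12.97 in the double knockdown on the log2 scale. He lost its call without either double knockdown array and in the fit of all 8 arrays (-0.66, limma adjusted p = 0.212). Fat body markers summed to 12.92 to 13.17 in GFP and 12.62 and 12.66 in the double knockdown, with 2 of 7, FASN1 and Desat1, over the limit and Fbp1, Fbp2, Lsp2 and apolpp under it. Crystal cell and lamellocyte markers summed to 10.79 to 11.06 and then 10.83 and 10.73, with Itgbn the only one of 11 to pass. Neuron markers summed to 8.70 to 9.35 and then 9.39 and 9.0, with the X-linked elav up (0.50 ± 0.08) and cpx down (-0.37 ± 0.08) among 9 and both lost without either double knockdown array, and nSyb, para and Appl under the limit. None of 7 muscle markers (1 lower at unadjusted p under 0.05, with Prm at -0.35 and sls at -0.02) and none of 13 germ line and testis markers (2 higher and 1 lower unadjusted, with bgcn at -0.11 and aub at 0.09) was called by limma. Whether a shift in cell type had a part in these results was not tested.

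The X chromosome lay slightly above the autosomes. The median change of 1047 expressed X genes was 0.06 and that of 4929 autosomal genes -0.0042, an X minus autosome shift of 0.06 (1.04-fold), with 0.06 in pair 1 and 0.08 in pair 2. The autosomal median was exceeded by 62.1% of X genes. Sxl RNAi in the same control sets had a shift of 0.26, and in the difference between the knockdowns, double minus Sxl RNAi, the X lay at -0.18 against the autosomes. Per array, the X minus autosome level, taken relative to each gene's mean over all arrays, was -0.08, -0.27 and -0.09 on the GFP arrays and -0.01 on both double knockdown arrays. The double knockdown was above all 3 controls, but GFP replicate 2 was farther from the other controls than these were from the double knockdown, and an exact two-sided permutation test of 3 against 2 arrays gave p = 0.3, where the smallest possible is 0.1. That test leaves the pairs out of account and could not have passed 0.05, and 2 pairs are too few for a paired permutation test to do so.

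The small shift came with more calls on the X. Of 1873 X genes 119 rose (6.35%) and 38 fell (2.03%), and of 10018 autosomal genes 216 rose (2.16%) and 240 fell (2.40%). Arms 2L, 2R, 3L and 3R held 34, 69, 46 and 67 rising genes and 47, 67, 45 and 75 falling ones, with medians between -0.01 and 0.00. By level, the X minus autosome difference was -0.01 and 0.01 in the lower 2 of 4 equal bins of genes by mean level, and 0.06 and 0.07 in the upper 2. The largest rises on the X were those of baz, Caf1-180 and DAAM, a formin that builds actin filaments, which read 6.01, 6.02 and 6.30 in GFP and 7.29 and 7.12 in the double knockdown (1.05 ± 0.14, limma adjusted p = 0.00581). For these 3 genes the changes after Sxl RNAi were 1.08, 1.01 and 1.03, and none of the 3 differed between the knockdowns past the threshold. Cubn, a receptor for endocytosis, and S6KL, a kinase gene, both on the X, fell by 1.05 ± 0.10 and 1.03 ± 0.09, with GFP replicate 2 near or inside the double knockdown values. DAAM, Cubn and S6KL were named after their values were seen.

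**Figure D4:**
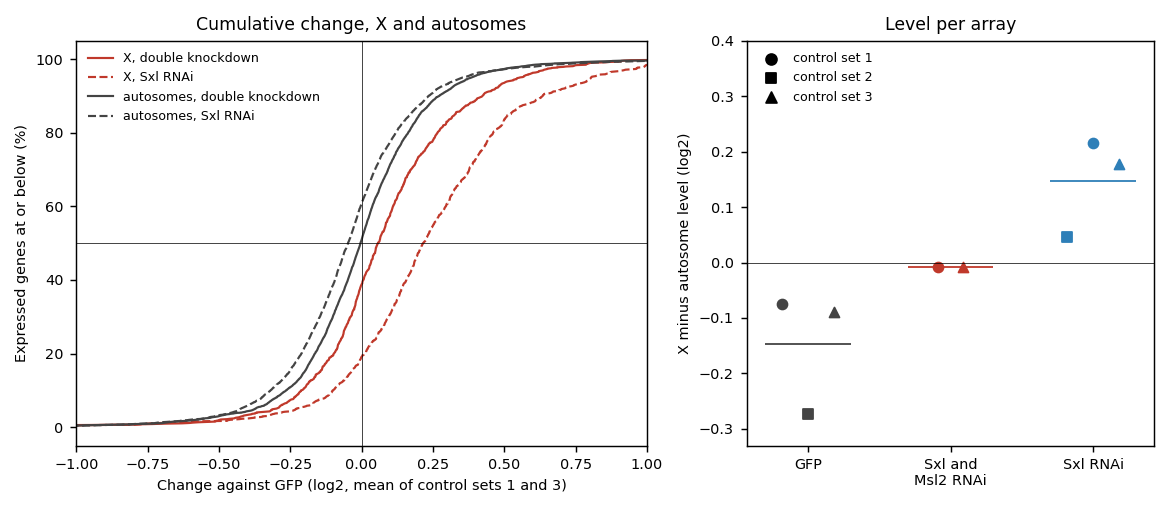
Left, cumulative share of expressed genes (percent, vertical axis) by log2 change against GFP for X (red) and autosomal genes (grey) in the double knockdown (solid) and in Sxl RNAi (dashed). Right, X minus autosome level of each array (log2), with symbols for control sets and a line at each group's mean; the solid red and grey curves are 0.06 apart at their medians and the dashed ones 0.26, and the double knockdown arrays, both at -0.01, lie between the GFP and the Sxl RNAi arrays.

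Chromosome 4 lay slightly below the other autosomes at the median. Of 65 genes tested 6 fell (9.23%) and no gene rose (limma), where 2.34% of all genes fell and 2.80% rose. Its 29 expressed genes had a median of -0.09, with -0.10 in each pair and -0.14 after Sxl RNAi. The genes that fell were CG32017 (-0.93 ± 0.13), unc-13, which primes synaptic vesicles (-0.69 ± 0.10), the calcium pump gene PMCA (-0.52 ± 0.11), the semaphorin receptor gene PlexB (-0.50 ± 0.10), Cadps (-0.40 ± 0.09) and Pur-alpha (-0.37 ± 0.08). Every GFP and double knockdown value of Cadps lay under the expressed limit, so its level was not shown to be above background. Cadps and Pur-alpha were near the threshold (limma adjusted p = 0.0465 and 0.0403). How the calls of these 6 genes fare without single arrays is not given. PMCA, PlexB and Pur-alpha were below all 3 controls, while the others overlapped the controls, of which GFP replicate 2 read 4.84 for CG32017 against 8.37 and 8.02 in the other controls. Pof, whose product coats chromosome 4, read 6.99, 7.15 and 7.08 in GFP and 6.43 and 6.53 in the double knockdown, below every control (-0.56 ± 0.11, limma adjusted p = 0.0201). It was lower by 1.35 after Sxl RNAi, and the knockdowns differed (0.79 ± 0.11, limma adjusted p = 0.0203). The Pof call against GFP was lost without GFP replicate 1 or either double knockdown array (-0.64 to -0.47), and in the fit of all 8 arrays (-0.41, limma adjusted p = 0.325). Hmr, the other of 8 chromosome 4 and heterochromatin protein genes to pass, rose by 0.47 ± 0.09 and was lost without the same arrays.

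The double knockdown was then set against Sxl RNAi itself, since both were compared with the same GFP arrays. Here 88 genes were called (0.734%), 7 higher and 81 lower in the double knockdown. Of the 81, 58 were on the X, which is 3.1% of X genes against 0.22% of autosomal genes, and no X gene was higher (limma). Of those 58 genes 52 were not called against GFP. In all, 18 genes were called both against GFP and against Sxl RNAi, and these 2 tests share the double knockdown arrays. The 88 calls fell to 8 without double knockdown replicate 1 and to 6 without replicate 2, were 28 and 46 when Sxl RNAi replicate 2 or 3 was left out, and rose to 233 without either GFP array.

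Of these 18, 11 were lower in the double knockdown than in both GFP and Sxl RNAi, 3 of them on the X. After CG16903, which was far lower than after Sxl RNAi (-2.0 ± 0.08, limma adjusted p = 4.84e-05), came Cep97, a protein that caps and restrains centrioles. Cep97 read 5.67, 5.73 and 5.96 in GFP, 5.78 and 5.75 after Sxl RNAi in control sets 1 and 3, and 3.97 and 4.97 in the double knockdown, both under the expressed limit (-1.35 ± 0.20 against GFP, limma adjusted p = 0.00846). Septin2, a subunit of the septin filament, read 10.77, 10.61 and 10.71 in GFP, 10.77 and 10.55 after Sxl RNAi, and 9.73 and 9.54 in the double knockdown (-1.10 ± 0.09, limma adjusted p = 7.15e-04). The double knockdown stood alone below both other groups for each of these genes.

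A pair of abundant transcripts did likewise. Idgf6, a secreted chitinase-like protein, read 12.12, 11.77 and 11.92 in GFP, 11.88 and 11.76 in Sxl RNAi, and 10.85 and 10.95 in the double knockdown (-1.11 ± 0.10, limma adjusted p = 9.81e-04). Rpn1, a subunit of the proteasome and the member that passed among 5 genes in use as references, read 10.80, 10.39 and 10.69 in GFP, 10.43 and 10.51 in Sxl RNAi, and 9.55 and 9.58 in the double knockdown (-1.18 ± 0.09, limma adjusted p = 7.06e-04). The differences of these 2 from Sxl RNAi were -0.92 ± 0.10 and -0.90 ± 0.09 (limma adjusted p = 0.00682 and 0.00671). Cep97, Septin2, Idgf6 and Rpn1 kept their calls against GFP without any single array. For the calls of single genes against Sxl RNAi, here and above, the fits without single arrays are not given. Without a replicate block, 1 of those 88 calls remained. Gfat1, which starts hexosamine synthesis (-0.92 ± 0.09), CG5033 (-0.83 ± 0.09), CG3635 (-0.57 ± 0.13), CG1910 (-0.46 ± 0.09), the nuclear envelope gene Nemp (-0.44 ± 0.09) and the protease gene Nrd1 (-0.37 ± 0.09) were the remaining 6. Nrd1 was at the threshold against GFP (limma adjusted p = 0.0495), lost that call without any single array, and overlapped GFP replicate 2.

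CG1648 alone was higher in the double knockdown than in both others. It read 6.99, 5.43 and 6.88 in GFP, 6.90 and 6.64 in Sxl RNAi, and 7.45 and 7.42 in the double knockdown (0.50 ± 0.09, limma adjusted p = 0.0167), and lost the call without GFP replicate 1 (0.48) or either double knockdown array (0.58 and 0.42). The other 6 genes had moved in the same direction in both knockdowns, but less in the double one. ATPsynC, a subunit of the mitochondrial ATP synthase, read 12.15, 12.51 and 11.82 in GFP, 10.02 and 9.74 in Sxl RNAi, and 10.93 and 10.86 in the double knockdown, which lay between the other groups (-1.09 ± 0.09 against GFP, limma adjusted p = 9.51e-04, and 1.02 ± 0.09 against Sxl RNAi, limma adjusted p = 0.00526). It was 1 of 2 called among 15 ATP synthase genes, the other being the X-linked ATPsyndelta (0.43 ± 0.09, lost without GFP replicate 3 or either double knockdown array). Pof was given above. Gbeta5, a G protein subunit, CG14629 and Brms1, all on the X, and Fmo-2 on 2R rose by 0.63, 0.64, 0.44 and 0.37 in the double knockdown and by 1.41, 1.32, 0.99 and 0.97 after Sxl RNAi.

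**Figure D5:**
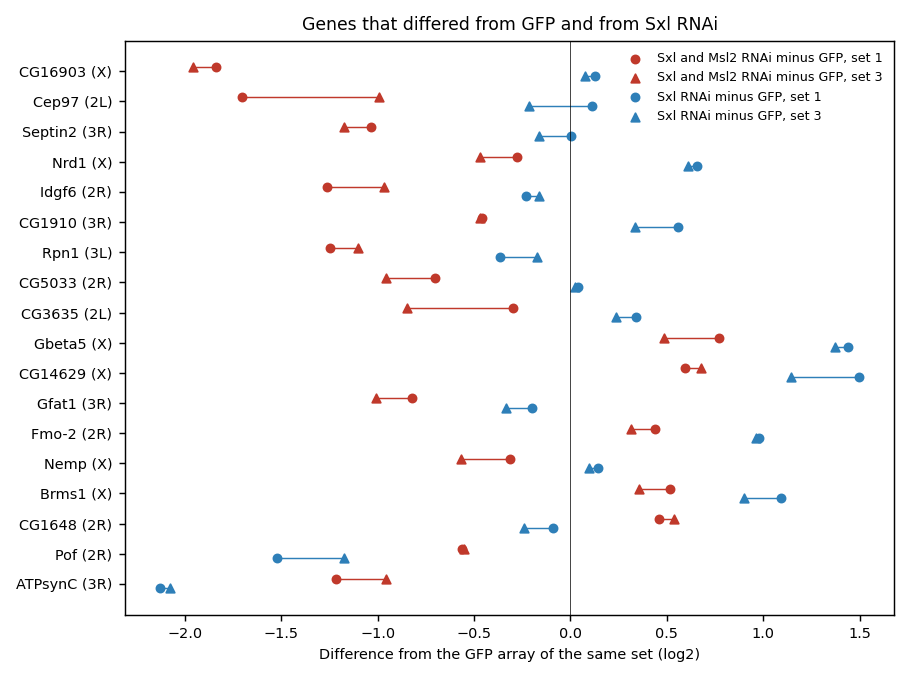
Log2 difference from the GFP array of the same control set (horizontal axis) for the 18 genes called both against GFP and against Sxl RNAi (rows, chromosome arm in parentheses), in the double knockdown (red) and in Sxl RNAi (blue); circles are control set 1, triangles control set 3 and lines join the 2 sets. In 11 genes both red symbols lie left of 0 and left of the blue ones, with CG16903 near -1.90, and ATPsynC and Pof lie left of 0 in both knockdowns.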

How the data were processed

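Total RNA of Kc cells was hybridised to Affymetrix Drosophila arrays. The authors summarised probe sets with RMA, named in the submitters' processing notes, and deposited the log2 values. The version of RMA and its settings are not given in the sources used for this work. Of 18952 probe sets, 183 controls were dropped, and 13647 had 1 gene symbol, 402 several and 4720 none. The probe set of highest mean stood for each of 11982 genes, 11899 of which matched RefSeq (assembly Release 6 plus ISO1 MT), used for names and arms only. That placed 1873 genes on X and 10018 on autosomes.

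limma 3.58.1 in R 4.3.3 was fitted to the 6 arrays of control sets 1 and 3, with group and control set as terms (2 residual and 6.57 prior degrees of freedom). The pairing comes from the labels, which name each array's GFP control. Deviations from the group means had r = 0.507 and 0.482 within the pairs, but with 2 double knockdown arrays these deviations mirror each other, so the values are a description and no independent check. On simulated data with 100 genes changed by 0.5 and 100 by 1 on the log2 scale, 31% and 83% were recovered, with 1 false call among 11982 genes.

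The comparison, the gene lists and the tests were chosen with earlier results of these data known. Genes named were the targets, the MSL complex list, the 15 largest rises and falls among called genes whose higher group mean was over the expressed limit, up to 4 called members of each other list (or the 2 of highest mean), and the 5 largest changes each way among genes called against both GFP and Sxl RNAi. Others are said to be named after their values were seen or were members of a count given in full. Lists are described by counts and medians, with no set test. Precision is limited by the small number of arrays. The alternatives tried were other array sets, no block, a block by title number, centring on autosomes, filters and probe set rules, a trended robust fit, and leaving out each array. Counts of list members without single arrays were added after seeing the data.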

Additional observations from a re-analysis of the deposited data

Results flagged for a closer look

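Probe sets with no gene symbol in the annotation entered no comparison above. In a fit of all 18769 probe sets, 36 of the 4720 without a symbol were higher in the double knockdown and 48 lower. The fit of genes called 335 higher and 280 lower of 11982, so calls were rarer among the probe sets without a symbol. The 2 sets are unlike, since a gene is represented by its probe set of highest mean, and they were not matched by level. Of autosomal genes, 3.67% rose and 4.16% fell in the highest of 4 bins by mean level. In the lowest bin 0% rose and 0.0388% fell. Those that rose most with both double knockdown arrays above all 3 GFP arrays were 1638956_at, 1627812_s_at and 1632298_s_at. 1638956_at read 4.47, 4.34 and 4.80 in GFP and 5.93 and 5.50 in the double knockdown (1.08 ± 0.16, limma adjusted p = 0.0102). Its 3 GFP values were under the expressed limit, so the change is a lower bound if they are background. 1627812_s_at read 9.87, 10.37 and 10.03 and then 10.80 and 10.92 (0.91 ± 0.09, limma adjusted p = 0.00184). 1632298_s_at read 8.17, 8.80 and 8.26 and then 8.83 and 9.36 (0.88 ± 0.12, limma adjusted p = 0.00714). Which genes these read is not given in the tables used here.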

How the results depend on the processing

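The pairing carries most of the calls. Against GFP, 615 genes were called with the control set as a block, 14 without any replicate block over the same 6 arrays, 1 without it over 3 GFP and 2 double knockdown arrays, and 0 with the replicate number of the titles as the block (676 at unadjusted p under 0.05), which is not the pairing that the labels give. A trended and robust fit called 1314, and leaving out single arrays gave 121 to 677. The fit of all 8 arrays called 454, of which 426 were among the 615, and the fits of GFP and double knockdown arrays only, with centring on autosomes, over expressed genes only, and with the mean of a gene's probe sets called 677, 626, 790 and 598. Against Sxl RNAi, the 88 calls became 1 without a replicate block, 0 with the title number as the block (348 at unadjusted p under 0.05), 150 with centring on autosomes, 414 in the trended robust fit, and 6 to 233 without single arrays. The X minus autosome shift of 0.06 became 0.13 without a replicate block over 3 against 2 arrays, 0.16 with the title number as the block, 0.0279 over all genes, dim ones included, and 0.0423 to 0.0812 without single arrays. Without a replicate block over 3 against 2 arrays and with the title number as the block, where GFP replicate 2 enters, spir read 0.12 and 0.72, cpx 0.095 and 0.21 and COX7AL 0.0635 and 0.44, and with the title number as the block AGO3 read 0.15 and vir-1 0.10. Of the 88 named genes that were called, 43 kept the call without any single array and 70 in the fit of all 8 arrays.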

Other observations

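Some genes that no list held, picked after their values were seen, also changed. Sesn, the sestrin gene that restrains TOR signalling, read 7.07, 8.39 and 7.34 in GFP and 8.23 and 8.23 in the double knockdown (1.02 ± 0.09, limma adjusted p = 0.00107), above its control in each pair and below GFP replicate 2. The globin gene glob1 read 5.72, 4.63 and 6.78 in GFP and 7.22 and 7.47 in the double knockdown, without overlap (1.10 ± 0.17, limma adjusted p = 0.00972). The stress kinase gene p38c read 5.67, 7.23 and 6.02 in GFP and 4.56 and 4.84 in the double knockdown, below every control and under the expressed limit (-1.15 ± 0.11, limma adjusted p = 0.00145). The fibroblast growth factor gene bnl read 8.50, 7.33 and 8.13 in GFP and 7.55 and 6.94 in the double knockdown, lower in each pair with an overlap across them (-1.07 ± 0.15, limma adjusted p = 0.00657). timeout, a paralogue of the clock gene timeless, read 7.25, 7.10 and 7.66 in GFP and 8.28 and 8.39 in the double knockdown (0.88 ± 0.10, limma adjusted p = 0.00261).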
